A study of Mus musculus with 10 samples.

Results

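Pdcd1, Ctla4, Lag3, Havcr2, Tigit, Tox and Entpd1 were followed in the T cells of SW1 melanoma tumors from mice given plain water or water with L-fucose (L-fuc), a dietary sugar. The 7 genes were taken by name from the 32285 genes of the deposited expression matrices, with earlier results of these data known, by a rule that uses no measured value. SW1 is a transplantable mouse melanoma line, here injected under the skin of the right flank of female C3H/HeJ mice aged 4 to 6 weeks. The 5 groups were control day 0 (before treatment), control day 7 and control day 21 (plain water) and L-fuc day 7 and L-fuc day 21 (L-fuc water ad libitum), with the dose given as 100 mM in the labels' treatment protocol and as 100 nM in their extract protocol. CD45+ cells sorted from the tumors were pooled into 1 expression library and 1 T cell receptor library per group, so a difference between 2 groups is a difference between 2 pooled libraries, and the mice within a pool cannot be told apart. T cells were barcodes with at least 2 UMIs (unique molecular identifiers, each counting 1 captured RNA molecule) of Cd3e, Cd3d and Cd3g in sum, at least 500 genes and at most 10% mitochondrial UMIs. The libraries held 14439185 to 119047810 UMIs in all. There were 3911 such T cells among 41936 barcodes: 477 in control day 0, 1497 in control day 7, 1820 in L-fuc day 7, 67 in control day 21 and 50 in L-fuc day 21.

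Inhibitory receptors are surface proteins that a T cell puts up after its antigen receptor has been engaged, and that dampen further signalling when they meet their ligands on tumor or antigen-presenting cells. Activated T cells carry them for a while, and T cells under lasting antigen stimulation carry several at once, a state called exhaustion. Pdcd1 encodes PD-1, Ctla4 encodes a receptor that competes with CD28 for its ligands, Lag3 binds MHC class II, Havcr2 encodes TIM-3, and Tigit competes with CD226 for ligands of the nectin family. Tox encodes a nuclear factor needed for the exhausted state, and Entpd1 encodes CD39, an enzyme that breaks down extracellular ATP on the path to adenosine. Regulatory T cells, marked by Foxp3, carry Ctla4, Tigit and Entpd1 without being exhausted, and macrophages and dendritic cells also use Havcr2, Entpd1 and, in part, Lag3.

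In the GRCm38 annotation, the build that the submitters' mm10 refers to, Pdcd1 and Ctla4 lie on chromosome 1 (chr1:94038305-94052553, minus strand, and chr1:60887000-60915832, plus strand), Lag3 on chr6:124904361-124911705 (minus), Havcr2 on chr11:46454935-46481255 (plus), Tigit on chr16:43648867-43664146 (minus), Tox on chr4:6686353-6991557 (minus) and Entpd1 on chr19:40612366-40741602 (plus). UMIs were counted per gene, so no isoform or exon is distinguished.

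The T cell libraries differed in ways that touch each value below. Median UMIs per T cell were 4615 to 5130.5 in 4 libraries and 10904.5 in L-fuc day 21. Many T cell barcodes also held genes of another cell type: at least 2 UMIs of the macrophage genes C1qa, C1qb and C1qc, at least 2 of the B cell genes Cd79a and Cd79b, or at least 10 of hemoglobin. These mixed barcodes made up 36.5% of T cells in control day 0, 64.9% in control day 7, 56.2% in L-fuc day 7, 32.8% in control day 21 and 42.0% in L-fuc day 21. Median CD3 UMIs per T cell were 15, 4, 9, 26 and 7.5 in that order, and 491 of the 1497 T cells of control day 7 sat at the minimum of 2. A T cell receptor was found in the receptor library of the same group for 79.2%, 51.8%, 57.4%, 77.6% and 44.0% of the T cells. Between 2 and 70 T cells per library carried a barcode that also occurred in another expression library. Without these, the L-fuc over control ratios given below for at least 3 members were 1.49 at day 7 and 0.525 at day 21. Values are therefore given for all T cells, without the mixed barcodes, for the T cells with a receptor, and after drawing each cell down to 1000 UMIs, which leaves out 1 to 16 T cells per library. Intervals are 95% limits for counting error only and say nothing about mice.

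Each of the 7 genes was found in the largest share of T cells in control day 21, and the other 4 libraries lay below it. For Ctla4, Havcr2, Tox and Entpd1, L-fuc day 21 could not be separated from control day 21 by the ratio intervals given below. Pdcd1 was detected in 31.7% of T cells in control day 0 (27.5 to 36.0), 23.5% in control day 7 (21.4 to 25.7), 31.9% in L-fuc day 7 (29.7 to 34.1), 74.6% in control day 21 (62.5 to 84.5) and 36.0% in L-fuc day 21 (22.9 to 50.8). The lowest library was thus the day 7 control, and its interval did not touch those of control day 0, L-fuc day 7 or control day 21. Ctla4 gave 28.5%, 20.7%, 31.7%, 67.2% and 40% in the same order. Lag3 gave 28.7%, 18.6%, 31.0%, 64.2% and 32%. Tigit, the most widely detected of the receptors at day 0, gave 34.6%, 25.3%, 35.2%, 70.1% and 32%. In these 4 receptors the order of the libraries was alike, with control day 7 lowest, control day 0 and L-fuc day 7 within 4 percentage points of each other, and control day 21 highest. L-fuc day 21 held 50 T cells, and its wide intervals overlapped those of control day 0 and L-fuc day 7 for each of the 7 genes.

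Over all T cells the fifth receptor did not share that order. Havcr2, the TIM-3 gene, was found in 17.8% of T cells in control day 0, 18.3% in control day 7, 18.9% in L-fuc day 7, 50.7% in control day 21 and 32% in L-fuc day 21. Its first 3 libraries could not be separated within counting error. Without mixed barcodes, its UMIs were also summed and scaled to an equal total per library (CPM). Havcr2 was then at 45.3 CPM in control day 0, 31.0 in control day 7 and 51.5 in L-fuc day 7. Control day 21 was at 299 CPM and L-fuc day 21 at 63.1 CPM, so control day 7 was lowest in that reading. Tox was detected in 31.2%, 21.9%, 32.7%, 55.2% and 36.0% of T cells, the order of the first 4 receptors with a smaller step to control day 21. Entpd1 was detected in 21.8%, 18.0%, 22.0%, 52.2% and 30%. In each library Havcr2 and Entpd1 were found in fewer T cells than Pdcd1, Ctla4 and Tigit, except in L-fuc day 21, where Havcr2 and Tigit were both at 32%.

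**Figure D1:**
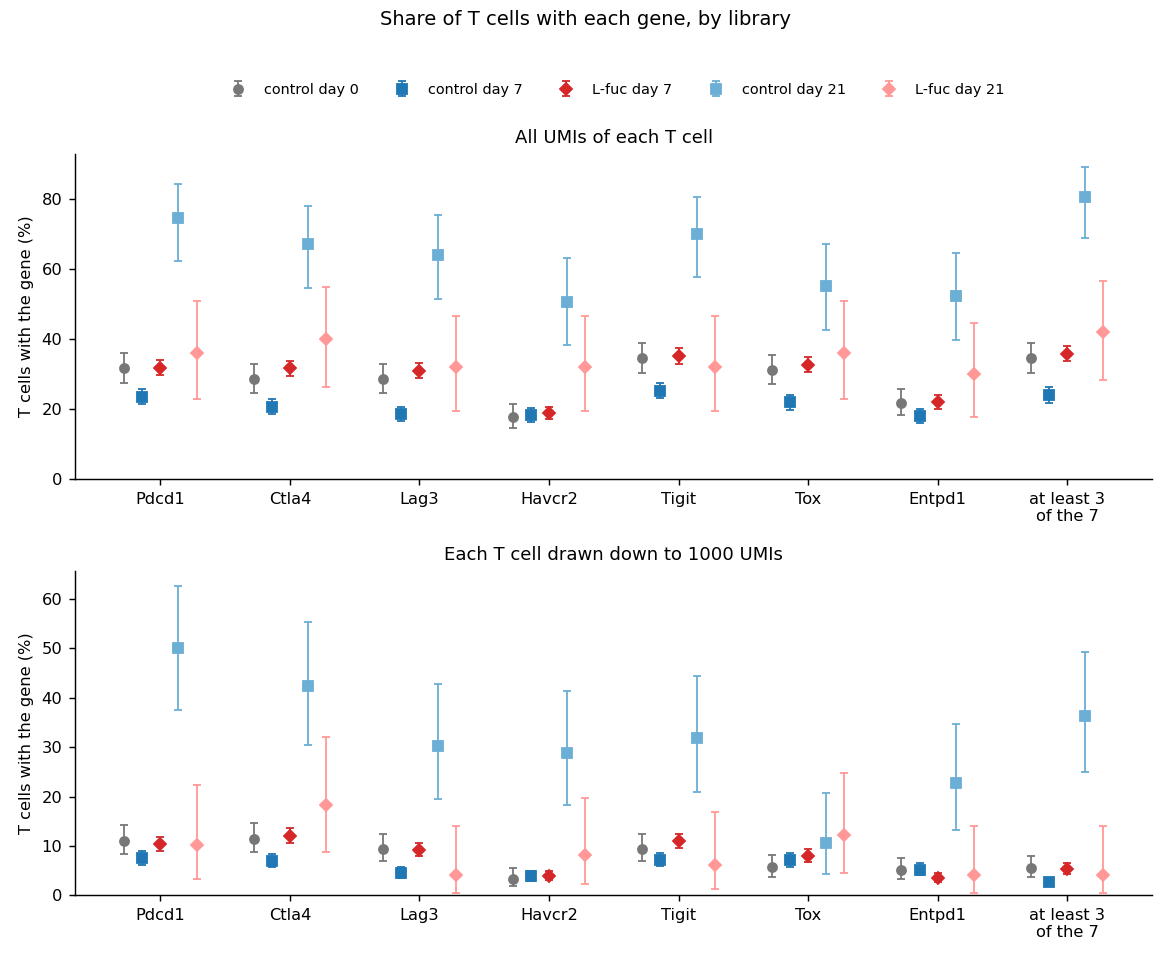
Share of T cells (%) with at least 1 UMI of each gene and with at least 3 of the 7, in the 5 libraries, with all UMIs (top) and with each cell drawn down to 1000 UMIs (bottom); bars are exact 95% binomial intervals for counting error. Control day 21 is highest for each gene in the top panel and for each gene but Tox in the bottom panel, where Tox was found in 10.6% of its T cells and in 12.2% of those of L-fuc day 21.

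At 1000 UMIs per cell control day 21 stayed highest for the receptors and not for Tox. Pdcd1 was then found in 11.1% of T cells in control day 0, 7.49% in control day 7, 10.3% in L-fuc day 7, 50% in control day 21 and 10.2% in L-fuc day 21. Ctla4 was found in 11.5%, 6.89%, 12%, 42.4% and 18.4%. Tox was found in 5.74%, 7.09%, 8.03%, 10.6% and 12.2%, with intervals that overlapped between neighbouring libraries in this order. So at equal depth control day 21 still stood above the other libraries in Pdcd1 and Ctla4, and a difference in Tox was not detectable at this number of cells. Entpd1 was found in 5.11%, 5.20%, 3.60%, 22.7% and 4.08%.

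Several of the genes were often found in 1 T cell. In control day 21, 54 of 67 T cells held at least 3 of the 7 genes (80.6%, 69.1 to 89.2), 9 held all 7, and 5 held none. The share of T cells with at least 3 members of the list was 34.6% in control day 0 (30.3 to 39.0), 24.0% in control day 7 (21.8 to 26.2), 35.8% in L-fuc day 7 (33.6 to 38.1) and 42.0% in L-fuc day 21 (28.2 to 56.8). T cells carried on average 1.94, 1.46, 2.03, 4.34 and 2.38 of the 7 genes in the order in which the libraries were listed. Cells with none were about as common in control day 0 (38.2%) as in control day 7 (37.9%), while cells with all 7 made up 3.14% (15 of 477) and 0.334% (5 of 1497) of them. L-fuc day 7 held 2.42% with all 7 and 33.2% with none. At 1000 UMIs per cell at least 3 members were found in 5.53%, 2.63%, 5.37%, 36.4% and 4.08% of T cells.

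**Figure D2:**
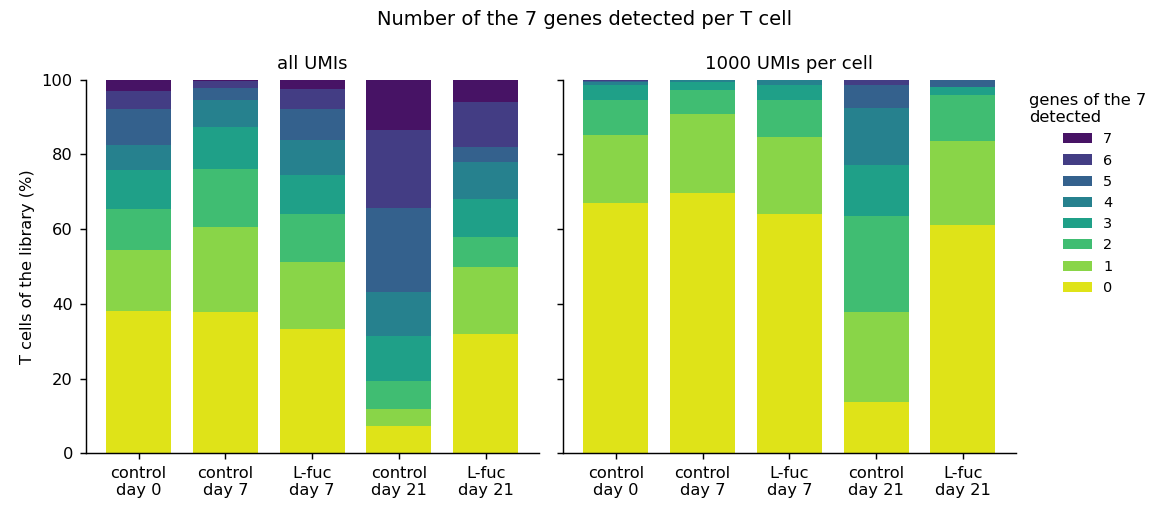
Share of T cells (%) of each library that held 0 to 7 of the genes, with all UMIs (left) and at 1000 UMIs per cell (right). With all UMIs, cells with none made up 7.46% of control day 21 and 32% to 38.2% of the other 4 libraries.

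The genes also occurred together at equal depth. Among T cells drawn to 1000 UMIs, without mixed barcodes and over the 5 libraries together, Ctla4 was found in 31.6% of the 206 cells with Pdcd1 and in 9.92% of the 1461 without it. Lag3 was found in 23.8% and 6.98%, Havcr2 in 14.1% and 3.15%, Tigit in 24.3% and 9.03%, and Tox in 18.0% and 8.35% of the same cells. Entpd1 stood closer, at 5.83% and 3.01%. Because the libraries differ in level, the pooled shares also carry the difference between libraries. Within L-fuc day 7 on its own, Ctla4 was found in 32.3% of 93 cells with Pdcd1 and in 12.2% of 691 without, and Lag3 in 24.7% and 8.10%. Within control day 7, Ctla4 was found in 16.7% of 48 and 5.59% of 465 cells, and Lag3 in 4.17% and 4.95%, the former from 2 cells, too few to tell an excess from none. These are shares of sparse counts and are given as descriptions.

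Outside the T cells the members fell into separate groups. Among 4977 barcodes of the macrophage class (C1q genes, no CD3 UMI, median 3316 UMIs), Havcr2 was found in 16.8%, Entpd1 in 17.7% and Lag3 in 10.4%, while Pdcd1 was found in 2.15%, Ctla4 in 0.964%, Tigit in 1.11% and Tox in 1.41%. Havcr2 and Entpd1 were also found in 9 and 7 of the 20 barcodes with the dendritic cell (cDC1) genes Xcr1 and Clec9a, Entpd1 in 24 of 46 neutrophil barcodes and Lag3 in 10 of 44 plasmacytoid dendritic cell barcodes. Tox was found in 21 of 155 NK barcodes (13.5%) and Tigit in 10 of them (6.45%). Free RNA in the droplets gives UMIs in cells that do not make them, and this background was read from 4228 barcodes with neither a class marker nor Ptprc, the CD45 gene, which held each of the 7 genes in 0.662% to 1.49% of barcodes at a median of 4217.5 UMIs. The T cell shares of all 7 genes lay above that background in each library. Barcodes with the C1q genes were left out of it, so it cannot measure macrophage RNA in mixed T cell barcodes. In control day 7 the T cell shares of Havcr2 (18.3%) and Entpd1 (18.0%) lay near those of the macrophage class. A further class, cut by the mature dendritic cell genes Ccr7, Fscn1 and Ccl22, did not match its name, as only 8.94% of its 3200 barcodes had a Ptprc UMI, and each of the 7 genes was found in at most 1.28% of it.

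Mixed and unmixed T cells of control day 7 differed most in 2 of the genes that macrophages also carry. In that library Havcr2 was found in 22.9% of mixed and 9.71% of unmixed T cells, and Entpd1 in 22.2% and 10.3%. Pdcd1 was found in 24.8% and 21.1% of the same cells, and Tox in 21.8% and 22.1%. The mixed cells held a median of 5559 UMIs and the unmixed ones 3088, beside 3857 in unmixed T cells of L-fuc day 7. At 1000 UMIs, cells of control day 7 with Cd8a or Cd8b1 and no Cd4 were also read. Havcr2 was found in 5.10% of all 529 and 5.46% of the 183 unmixed, and Entpd1 in 6.62% and 2.73%. In cells with Cd4 and neither Cd8 gene, Havcr2 was found in 5 of all 158 and 1 of the 51 unmixed, and Entpd1 in 7 and 2. The part of depth in the differences between mixed and unmixed cells was not tested. Without mixed barcodes the share with at least 3 members was 27.1% in control day 0, 17.9% in control day 7, 32% in L-fuc day 7, 80.0% in control day 21 and 24.1% in L-fuc day 21. The part of the mixed barcodes in the results below was not tested beyond these readings.

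At day 7 the question was whether T cells from L-fuc tumors carried these genes more or less often than T cells from control tumors. Pdcd1, Ctla4, Lag3, Tigit and Tox were found more often in the L-fuc library. The ratio of shares was 1.67 for Lag3 (1.44 to 1.93), 1.53 for Ctla4 (1.33 to 1.76), 1.49 for Tox (1.30 to 1.71), 1.39 for Tigit (1.23 to 1.59) and 1.36 for Pdcd1 (1.19 to 1.55). Entpd1 gave 1.22 (1.04 to 1.43) and Havcr2 gave 1.03 (0.876 to 1.21), which could not be told from equal shares. T cells with at least 3 members were 1.49 times as frequent (1.31 to 1.70). With 1 library per group there is no replicate check and no p-value.

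The size of that difference depended on which T cells were counted, and its direction did for Entpd1 and Havcr2. Without mixed barcodes the ratio for at least 3 members was 1.79 (1.41 to 2.29), among T cells with a receptor 1.45 (1.25 to 1.70), and at 1000 UMIs per cell 2.04 (1.39 to 3.04). It was 1.24 with at least 3 CD3 UMIs and 2.46 with at least 1 as the rule for a T cell. Ctla4 gave 1.84, 1.46 and 1.74 and Lag3 gave 1.92, 1.54 and 2.02 in the same 3 readings. Havcr2 gave 1.41, 1.04 and 1.00, and 0.573 and 0.814 at 500 and 2000 UMIs per cell. Entpd1 gave 1.51 without mixed barcodes, 1.20 with a receptor and 0.693 (0.490 to 0.976) at 1000 UMIs, where it was found less often in the L-fuc library. Tox gave 1.13 (0.875 to 1.47) at 1000 UMIs, so its difference was not detectable at equal depth.

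**Figure D3:**
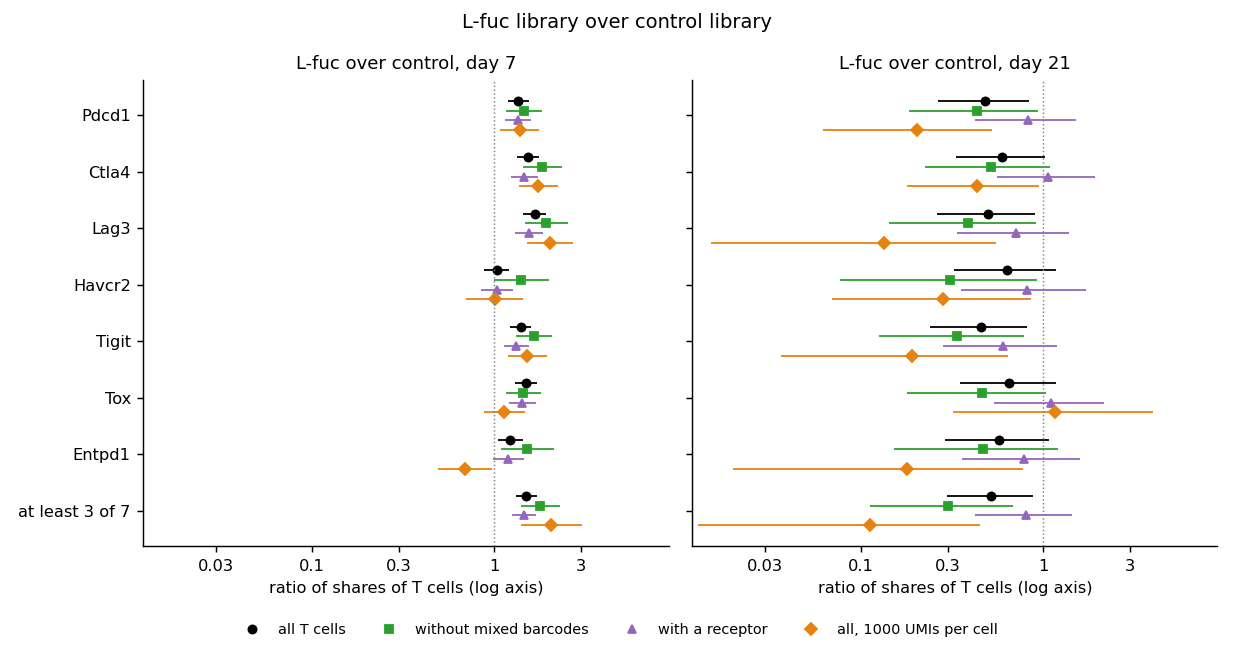
Ratio of the share of T cells with each gene in the L-fuc library over that in the control library (log axis) at day 7 and day 21, for all T cells, without mixed barcodes, with a receptor, and at 1000 UMIs per cell; lines are exact 95% intervals for counting error and the dotted line marks equal shares. At day 7 the intervals for Pdcd1, Ctla4, Lag3 and Tigit lie above 1 in all 4 readings, and at day 21 the intervals of the T cells with a receptor reach across 1 for each gene.

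Split by co-receptor and with all UMIs, both compartments held more of the 4 receptors at day 7 in the L-fuc library. Cells with Cd8a or Cd8b1 and no Cd4 were called CD8 (530 in control, 501 in L-fuc), and cells with Cd4 and neither Cd8 gene were called CD4 (160 of 1497 T cells in control, 422 of 1820 in L-fuc). In CD8 cells Pdcd1 was found in 34.9% and 44.3% (ratio 1.27, 1.04 to 1.55), Lag3 in 24.5% and 38.3% (1.56, 1.24 to 1.97), Ctla4 in 21.9% and 29.9% (1.37, 1.07 to 1.76), Tigit in 32.1% and 41.5% (1.29, 1.05 to 1.60), and at least 3 members in 33.4% and 46.1% (1.38, 1.13 to 1.69). In CD4 cells Pdcd1 was found in 27.5% and 45.5% (1.65, 1.19 to 2.35), Lag3 in 26.2% and 42.7% (1.62, 1.16 to 2.33), Ctla4 in 34.4% and 53.3% (1.55, 1.15 to 2.12), and at least 3 members in 35.6% and 53.8% (1.51, 1.12 to 2.06). Havcr2 was at 21.2% and 21.3% in CD4 cells, and Entpd1 at 26.9% and 22.3%. Median UMIs were 4318 in control and 5405 in L-fuc CD8 cells, and 5738 and 6150 in CD4 cells.

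At 1000 UMIs per cell the ratios in CD4 cells lay above those in CD8 cells. Pdcd1 was found in 4.43% of CD4 cells in control and 16.1% in L-fuc (ratio 3.64, 1.67 to 9.39), Lag3 in 3.80% and 14% (3.68, 1.59 to 10.4) and Tigit in 5.70% and 19.4% (3.41, 1.71 to 7.72). In CD8 cells Pdcd1 gave 12.3% and 15.2% (1.24, 0.878 to 1.75), Lag3 6.81% and 9.62% (1.41, 0.899 to 2.24) and Tigit 10.2% and 10.8% (1.06, 0.713 to 1.57). At least 3 members were found in 3 of 158 CD4 cells of control and 41 of 422 of L-fuc (5.12, 1.63 to 25.8), and in 28 of 529 and 27 of 499 CD8 cells (1.02, 0.580 to 1.80). With mixed barcodes left out as well, Pdcd1 was found in 16.4% of 183 CD8 cells of control and 14.4% of 229 of L-fuc. Tigit was at 12.6% and 10.5% and at least 3 members at 6.01% and 5.24%. Ctla4 and Lag3 went the other way, each at 7.65% and 10.9%. The difference between the 2 compartments itself was not tested. CD4 cells without a Foxp3 UMI, which leaves out cells read as regulatory T cells, gave 1.77 (1.22 to 2.64) for at least 3 members with all UMIs. Tox was near equal in both compartments at 1000 UMIs, at 10.8% and 9.62% in CD8 and 7.59% and 7.82% in CD4 cells.

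The UMIs of all T cells of a library were also summed and scaled to an equal total per library (CPM), a scale that is not corrected for transcript length and is used here only to compare libraries. Ctla4 was at 66.0 CPM in control day 7 and 168 CPM in L-fuc day 7, a log2 ratio of 1.35 with a pseudocount of 1 UMI. Lag3 was at 47.1 and 111 CPM (1.24), Tigit at 67.4 and 139.8 CPM (1.05), Pdcd1 at 72.4 and 142 CPM (0.98) and Tox at 47.2 and 74.0 CPM (0.65). Havcr2 (43.1 and 48.8 CPM, 0.18) and Entpd1 (37.5 and 43.0 CPM, 0.20) stood near the other genes, whose median log2 ratio was -0.13. So 3 of the 7 were at least 2-fold higher and none was 2-fold lower. Over the 14623 genes that reached 10 UMIs when both libraries were added, 13.7% passed 2-fold, with 5.05% higher and 8.62% lower. Without mixed barcodes Pdcd1 (1.01) joined Ctla4 (1.83), Lag3 (1.46) and Tigit (1.17), so 4 of 7 were past 2-fold, against 5.08% of genes. In that reading Havcr2 was at 0.72, Tox at 0.72 and Entpd1 at 0.40, beside a median of -0.20 over all genes. Summed at 1000 UMIs per cell, Lag3 (0.90) and Tigit (0.87) were no longer past 2-fold, and Ctla4 was (1.34). On summed counts, more T cells with the gene and more RNA per cell cannot be told apart.

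At day 21 the order of L-fuc and control was the opposite. Pdcd1 was found in 74.6% of 67 control T cells and 36.0% of 50 L-fuc T cells (ratio 0.482, 0.265 to 0.841), Tigit in 70.1% and 32% (0.456, 0.241 to 0.819), Lag3 in 64.2% and 32% (0.499, 0.262 to 0.903) and Ctla4 in 67.2% and 40% (0.596, 0.333 to 1.03). The ratio was 0.631 for Havcr2, 0.652 for Tox and 0.574 for Entpd1, each with an interval that reached across 1. At least 3 members were found in 80.6% and 42.0% (0.521, 0.299 to 0.877). By summed level all 7 were at least 2-fold lower in L-fuc, with log2 ratios from -1.34 for Entpd1 to -2.50 for Lag3, while Entpd1 was at -0.79 when summed at 1000 UMIs per cell. Pdcd1 was at 544 CPM in control and 108 CPM in L-fuc, Lag3 at 569 and 100.1 CPM, and Ctla4 at 524 and 152 CPM. Of 10140 genes, 20.4% passed 2-fold in the same comparison, 10.6% lower and 9.78% higher, and the median log2 ratio was -0.09. Without mixed barcodes all 7 remained at least 2-fold lower, beside 12.4% of genes.

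The day 21 libraries differed in what their T cell barcodes held, and with all UMIs the ratios lay nearer to 1 among cells with a receptor. In control day 21 a receptor was found for 52 of 67 T cells, and in L-fuc day 21 for 22 of 50. L-fuc day 21 also held 25 T cells with neither co-receptor, of which 4 had at least 3 members (16%), while control day 21 held 12 such T cells. In CD8 cells at least 3 members were found in 76.2% of 21 in control and 58.3% of 12 in L-fuc. In CD4 cells they were found in 92.9% of 28 and 70.0% of 10. At 1000 UMIs the counts were 7 of 21 and 0 of 12 CD8 cells, and 15 of 28 and 2 of 10 CD4 cells. Among cells with a receptor, at least 3 members were found in 47 of 52 (90.4%) and 16 of 22 (72.7%), a ratio of 0.805 (0.426 to 1.44). Pdcd1 was found in 82.7% and 68.2% of these cells (0.824, 0.425 to 1.51), Tigit in 82.7% and 50% (0.605, 0.281 to 1.19), Ctla4 in 73.1% and 77.3% (1.06, 0.560 to 1.92) and Tox in 57.7% and 63.6% (1.10, 0.540 to 2.15). The intervals hold both equal shares and the ratios seen over all T cells, and the L-fuc cells with a receptor held a median of 11308 UMIs against 5589 in control. Drawn to 1000 UMIs, cells with a receptor gave a ratio of 0.236 for at least 3 members (0.0268 to 0.973). Without mixed barcodes the ratio for at least 3 members was 0.302 (0.113 to 0.688). At 1000 UMIs per cell and over all T cells it was 0.112 (0.0129 to 0.452), from 24 of 66 and 2 of 49 cells.

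Over time in the control tumors, Pdcd1, Ctla4, Lag3, Tigit and Tox were found in fewer T cells at day 7 than before treatment, and all 7 in more at day 21. Control day 7 over day 0 gave a ratio of shares of 0.743 for Pdcd1 (0.612 to 0.905), 0.726 for Ctla4, 0.649 for Lag3 (0.527 to 0.802), 0.730 for Tigit, 0.701 for Tox and 0.693 for at least 3 members (0.575 to 0.839). Havcr2 gave 1.03 and Entpd1 0.827 (0.657 to 1.05). Drawn to 1000 UMIs, Pdcd1 gave 0.677 (0.483 to 0.961), Ctla4 0.599 (0.427 to 0.850), Lag3 0.490 (0.331 to 0.734) and at least 3 members 0.476 (0.282 to 0.814), while the intervals of Tigit (0.772), Tox (1.23), Havcr2 (1.15) and Entpd1 (1.02) reached across 1. Among T cells with a receptor the ratio for at least 3 members was 0.897 (0.727 to 1.11) and that for Pdcd1 0.925 (0.744 to 1.15), so the step was not detectable there. By summed level Lag3 (-1.54), Ctla4 (-1.26) and Pdcd1 (-1.15) were at least 2-fold lower at day 7, while 29.3% of genes passed 2-fold and 6.47% were lower. Without mixed barcodes Tigit (-1.15) joined them, beside 6.95% of genes. Control day 21 over control day 7 gave ratios of shares of 2.52 for Tox to 3.44 for Lag3, and 3.36 for at least 3 members (2.48 to 4.48). Among T cells with a receptor the latter was 2.74 (1.96 to 3.75), and without mixed barcodes 4.47 (2.96 to 6.63). Drawn to 1000 UMIs, the ratio ran from 4.37 for Entpd1 to 7.35 for Havcr2, while the interval of Tox, from 0.587 to 3.19, reached across 1. All 7 were at least 2-fold higher by summed level, from a log2 ratio of 1.66 for Tox to 3.60 for Lag3, beside 14.4% of genes, with 9.82% of genes lower. These comparisons share control day 7 with each other and with the L-fuc comparison.

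Within a library, CD8 and CD4 cells shared their pool, and 5 libraries gave 5 differences for each gene. Ctla4 was found less often in CD8 than in CD4 cells in all 5 libraries: 25.2% and 31.4% in control day 0, 21.9% and 34.4% in control day 7, 29.9% and 53.3% in L-fuc day 7, 66.7% and 82.1% in control day 21, and 58.3% and 90.0% in L-fuc day 21. The mean difference was -17.8 ± 9.90 percentage points (SD, n = 5), with p = 0.0625 by an exact two-sided sign-flip permutation test, the smallest that 5 libraries allow, and 0.562 after Benjamini-Hochberg adjustment over 9 measures, so the design could not reach 0.05. With all UMIs, the share of all 11314 genes that were lower in all 5 libraries was 7.38%, and the share higher in all 5 was 2.04%. Neither share was computed at 1000 UMIs per cell. The other 6 genes differed in direction between libraries. At 1000 UMIs per cell Tox (3.66 ± 2.44 points) and Entpd1 (5.32 ± 6.39) were found more often in CD8 cells in 5 of 5 libraries, with an exact permutation p of 0.0625 and 0.188 adjusted for each, and Ctla4 less often in 5 of 5. For Entpd1, L-fuc day 21 gave 16.7 points, from 2 of 12 and 0 of 10 cells, and the other 4 libraries 1.57 to 3.57. With mixed barcodes left out as well, Tox was higher in CD8 cells in 4 of 5, Entpd1 in 3 of 5 and Ctla4 in 2 of 5 libraries. Pdcd1 was at 50.4% of CD8 and 28.8% of CD4 cells in control day 0 and at 66.7% and 92.9% in control day 21, for a mean difference of -3.69 ± 19.6 points. Lag3 was at 45.3% and 27.1% in control day 0 and at 57.1% and 78.6% in control day 21 (mean -3.52 ± 14.3). At least 3 members were found in 51.1% of CD8 and 35.6% of CD4 cells in control day 0, and in fewer CD8 than CD4 cells in the other 4 libraries (mean -4.55 ± 12.4, exact permutation p = 0.4375). Cells with neither co-receptor held at least 3 members less often in each library, from 9.05% in control day 7 to 50% in control day 21.

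CD4 cells with a Foxp3 UMI carried Ctla4 and Tigit more widely than the other members in the 3 libraries that held more than 5 of them. Ctla4 was found in 15 of 18 such cells in control day 0 (83.3%), 22 of 35 in control day 7 (62.9%) and 65 of 75 in L-fuc day 7 (86.7%). Tigit was found in 17 of 18, 24 of 35 and 64 of 75. Pdcd1 was found in 11, 12 and 40 of the same cells (61.1%, 34.3% and 53.3%), and Entpd1 in 9, 14 and 24. Without the Foxp3 cells the Ctla4 share of CD4 cells in L-fuc day 7 was 46.1%, beside 29.9% of CD8 cells. Foxp3 can go undetected in a regulatory T cell, so this reading cannot leave all of them out.

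T cell receptors mark clones, since daughter cells inherit the rearranged receptor genes. The receptor libraries held 386, 949, 1084, 56 and 22 barcodes in 326, 577, 681, 37 and 22 clonotypes, in the same order of libraries. Clonotypes of at least 2 barcodes, called expanded, numbered 31, 84, 131, 9 and 0, and the largest held 8, 60, 25, 7 and 1 barcodes. Only control day 7 and L-fuc day 7 shared a set of identical receptor sequences, and that was 1 clonotype.

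The receptors shown here belong to the clones whose T cells held the most or the fewest of the 7 genes, or were the largest, and were picked after their values were seen. They are CDR3 sequences, the stretch rearranged in each clone, of the beta chain (TRB), read 5′ to 3′ from the deposited receptor files, with the first and last codon in capitals, which encode the bounding cysteine and phenylalanine. Clonotypes of a library that list the same single beta sequence were joined and are called a clone here, although their alpha chains can differ; that such cells stem from 1 cell was not tested. A rearranged junction has no single place in the reference genome.
Control day 7, largest: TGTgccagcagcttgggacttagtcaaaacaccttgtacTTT
Control day 7, lowest: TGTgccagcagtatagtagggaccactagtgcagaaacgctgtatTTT
Control day 0, largest: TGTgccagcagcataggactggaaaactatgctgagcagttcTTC
L-fuc day 7, largest: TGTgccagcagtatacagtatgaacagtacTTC
L-fuc day 7, highest CD4: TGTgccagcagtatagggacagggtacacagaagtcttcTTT
L-fuc day 7, highest CD8: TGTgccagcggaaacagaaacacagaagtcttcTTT
L-fuc day 7, lowest: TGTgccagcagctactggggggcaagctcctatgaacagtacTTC

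The largest clone of control day 7 was written as 9 clonotypes that share this beta sequence and differ in the alpha chains listed with it, and together they held 120 of 949 receptor barcodes (12.6%). Of its 94 T cells, 68 were CD8, 64 were mixed barcodes, and 42 held at least 3 members (44.7%, 34.4 to 55.3). Pdcd1 was found in 47 of them, Tox in 43, Tigit in 41, Lag3 in 28, Havcr2 in 27, Entpd1 in 26 and Ctla4 in 23. Its lowest large clone, with 24 T cells of which 19 were CD8, held at least 3 members in 6 (25%). The largest clone of L-fuc day 7, of 31 T cells with 25 CD8, held them in 23 (74.2%, 55.4 to 88.1).

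The highest share was in L-fuc day 7. There a CD4 clone of 21 T cells, none with a Foxp3 UMI, held at least 3 of the 7 genes in 20 cells (95.2%, 76.2 to 99.9), with Pdcd1 in 20, Lag3 in 19, Tigit in 18, Ctla4 in 17, Havcr2 in 15 and Tox in 14. Its cells were also deep, at a median of 11002 UMIs, and at 1000 UMIs 12 of 21 held at least 2 of the genes (57.1%). A CD8 clone of 15 T cells held at least 3 members in 14, with Pdcd1 in 14 and Tox in 12. Another clone of 23 T cells, 14 of them CD4, held at least 3 members in 7 (30.4%, 13.2 to 52.9), and 1 of 23 held at least 2 at 1000 UMIs. The small control day 0 clone of 10 T cells, none mixed, held at least 3 members in 9.

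Clones with Foxp3 carried another mix. In L-fuc day 7, clonotypes 7, 8 and 9 were the ones of at least 10 T cells with a Foxp3 UMI in 5 or more cells. Clonotype 8, with the beta sequence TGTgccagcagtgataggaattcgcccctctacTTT, had Foxp3 in 7 of 12 T cells, Tigit in 11, Ctla4 in 10 and Pdcd1 in 4. Clonotype 7, listed without a beta chain, and clonotype 9 had the same alpha sequence, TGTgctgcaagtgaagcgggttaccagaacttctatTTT, and had Foxp3 in 5 of 12 and 5 of 11 T cells. Ctla4 was found in 11 and 10 of them, and Pdcd1 in 4 and 6. In control day 7 a clone joined from 2 clonotypes had Foxp3 in 5 of 11 T cells, Tigit in 9, Ctla4 in 6 and Pdcd1 in 4. Over the 18 clonotypes with at least 10 T cells, here not joined by beta sequence, the share with at least 3 members ran from 21.1% to 94.7% with a median of 63.3%. That of Pdcd1 ran from 21.1% to 100.0% and that of Ctla4 from 4.55% to 91.7%. Control day 7 clonotypes 1, 3 and 6, which have the same beta sequence, are counted apart in these ranges.

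T cells of expanded clonotypes held the genes more often than T cells whose receptor was seen once. The 4 libraries with both kinds gave, for at least 3 members, 80.0% of 90 expanded and 23.3% of 288 single cells in control day 0, 41.0% of 383 and 25.2% of 393 in control day 7, 61.8% of 521 and 34.2% of 524 in L-fuc day 7, and 96.0% of 25 and 85.2% of 27 in control day 21. Expanded cells were higher in 4 of 4 libraries, by 27.7 ± 20.6 percentage points (SD, n = 4). The exact two-sided sign-flip permutation test gave p = 0.125, the smallest that 4 libraries allow, and 0.161 after adjustment over 9 measures. Without control day 0, the library with the widest gap, the mean was 18.1 points for at least 3 members, 14.8 for Pdcd1, 15.1 for Lag3, 7.81 for Entpd1, 3.05 for Havcr2 and 2.81 for Ctla4. Without control day 21 it was 14.9 for Havcr2 and 11.8 for Ctla4.

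By gene, Tigit differed by 27.3 ± 16.0 points, Pdcd1 by 24.4 ± 21.3, Lag3 by 22.8 ± 16.1, Tox by 17.3 ± 3.06 and Entpd1 by 13.2 ± 11.3, each higher in 4 of 4 libraries with the same p (exact permutation p = 0.125). Ctla4 (6.39 ± 11.8) and Havcr2 (9.34 ± 14.5) were lower in expanded cells of control day 21 and higher in the other 3 libraries. The spread of Tox was the smallest: it was found in 47.8% of expanded and 29.2% of single cells in control day 0, 37.3% and 19.6% in control day 7, 46.8% and 34.0% in L-fuc day 7, and 68.0% and 48.1% in control day 21. Of all genes, 7.94% were higher in expanded cells in all 4 libraries and 5.78% lower in all 4, beside 5 of the 7 members. These shares hold for all UMIs and were not computed at 1000 UMIs per cell. Median UMIs of expanded and single cells were 6433 and 4743 in control day 0, 4809 and 5109 in control day 7, 5888 and 6131.5 in L-fuc day 7, and 6670 and 5338 in control day 21, so both libraries of day 7 had the shallower expanded cells. At 1000 UMIs per cell Pdcd1 (13.5 ± 6.07) and Tox (5.75 ± 4.65) were higher in 4 of 4 libraries, the other 5 in 3 of 4, and at least 3 members by 4.82 ± 8.11 points, higher in 3 of 4. The difference for at least 3 members was 33.7 points in CD8 and 27.7 points in CD4 cells, 28.5 without mixed barcodes, and 22.7 with each clonotype counted once.

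**Figure D4:**
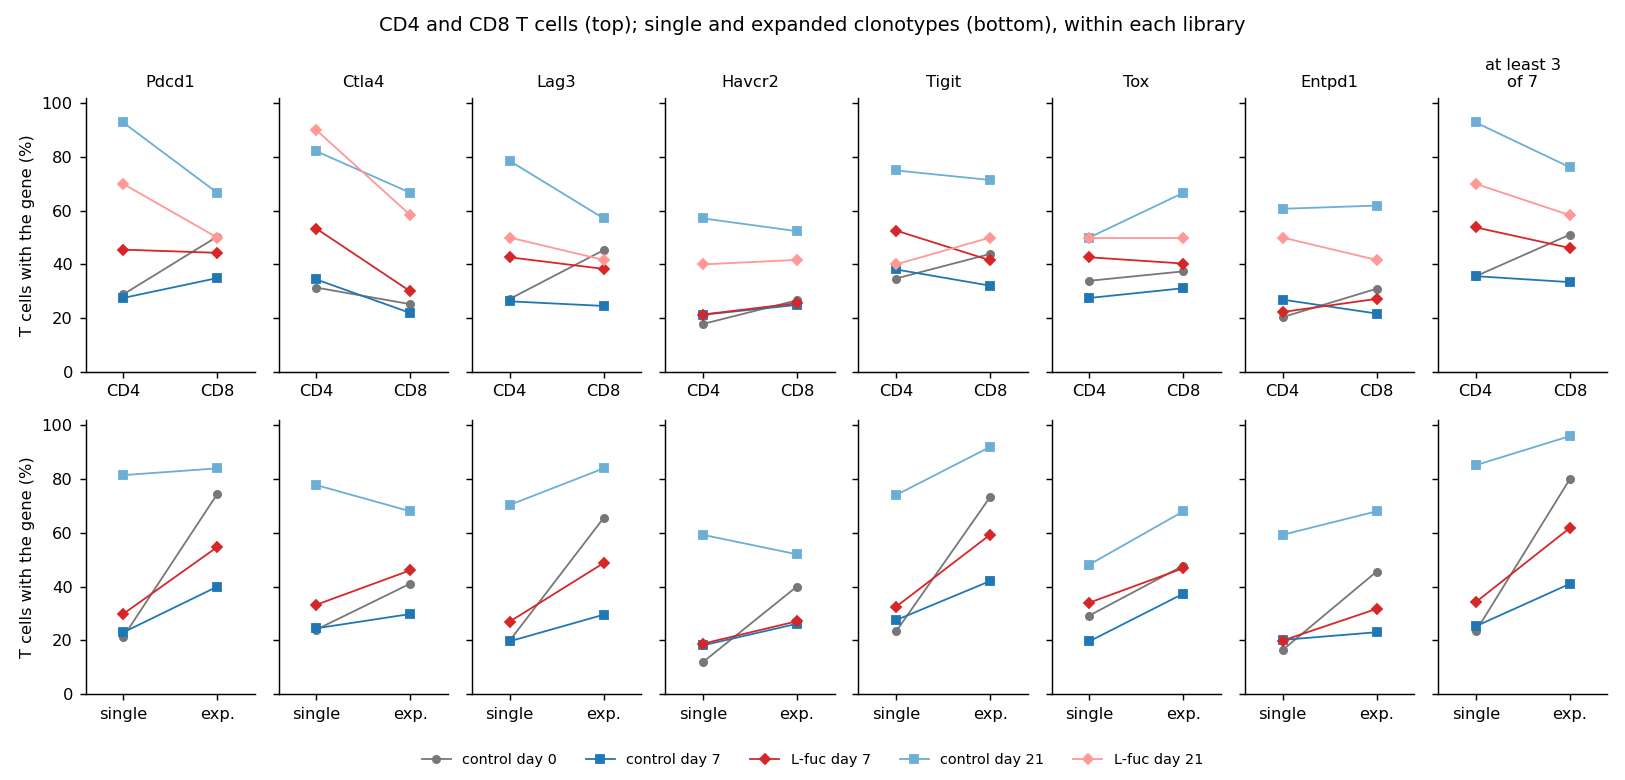
Share of T cells (%) with each gene in CD4 and CD8 cells of the 5 libraries (top) and in single and expanded (exp.) clonotypes of the 4 libraries that hold both (bottom); each line joins the 2 values of a library. The lines for Ctla4 fall from CD4 to CD8 in all 5 libraries, and those for Pdcd1, Lag3, Tigit, Tox, Entpd1 and at least 3 of the 7 rise from single to expanded in all 4.

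The genes most like each member, the other 6 members left out, were taken from 5919 genes by the phi coefficient, a correlation of detected against not detected, centred within each library, over 3871 T cells at 1000 UMIs in a separate draw. Mixed barcodes were among these cells, and their part in the coefficients was not tested. All coefficients were low. Between members the highest were 0.19 for Pdcd1 with Ctla4 and 0.18 for Lag3 with Tigit. Ctla4 was most like Icos (0.25), a costimulatory receptor, then Tnfrsf4 (0.21, encoding OX40) and Tnfrsf9 (0.20, encoding 4-1BB). Pdcd1 was most like Rgs16 (0.22), a regulator of G protein signalling, then Nkg7 (0.19), a gene of cytotoxic granules, and Nrgn (0.15). Lag3 shared Rgs16 (0.18) and Nkg7 (0.15) and added Bhlhe40 (0.14), a transcription factor. Tigit was most like Tnfrsf9 (0.17), Rgs16 and Icos (0.16 each). Havcr2 (Nkg7, Mmd and Ifng), which stood nearest to Lag3 among the members (0.12), Tox (Lck, Nkg7 and Cdk6) and Entpd1 (Prdm1, Fgl2 and Nkg7) had no gene outside the 7 above 0.12. The cells share libraries and depth, so these are descriptions with no test.

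Related T cell genes were read from lists of costimulatory receptors, other inhibitory receptors, transcription factors, naive and memory genes, effector genes, regulatory T cell genes, and adenosine and residency genes, in T cells at 1000 UMIs without mixed barcodes. The 291 cells with at least 2 of the 7 genes were set beside 1051 cells with none. Icos was found in 26.1% and 5.04%, Tnfrsf9 in 26.8% and 4.38% and Tnfrsf4 in 18.9% and 4.66%. Each was higher in all 4 libraries that held at least 5 cells of both kinds. The share of all genes higher or lower in all 4 libraries was not computed for this contrast. At 1000 UMIs control day 21 held 44 unmixed T cells and L-fuc day 21 held 28. In the draw used for the shares above, 5 of the 44 held none of the genes. A direction in a day 21 library thus rests on few cells, here and in the counts of libraries that follow. Of the costimulatory receptors, Cd28 was at 17.5% and 7.52% and Cd2 at 29.6% and 18.0%. Tnfrsf9 was at 41.0% and 5.81% in CD4 cells, and at 7.27% and 3.56% in CD8 cells, where 1 of 3 libraries was lower. Among effector genes, Nkg7 was found in 81.4% and 41.2%, Ifng, the interferon-gamma gene, in 26.5% and 5.80%, and Ccl4 in 32% and 13.5%. Gzma (4.81% and 8.47%) and Xcl1 (5.84% and 9.13%) lay the other way over all cells, and with 2 libraries in each direction. Among CD8 cells Gzma was at 4.5% and 9.6%, lower in 3 of 3 libraries, and Xcl1 at 5.5% and 6.4%, lower in 2 of 3. Of the other inhibitory receptors over all cells, Vsir (10.3% and 6.09%) and Cd96 (9.28% and 4.47%) were higher in 3 of 4 libraries. Klrg1 (3.44% and 1.14%), Cd200r1 (3.44% and 0.761%), Btla (1.72% and 1.52%) and Cd160 (2.06% and 2.66%) were higher in 2. Cd244a (2.75% and 1.90%) and Lair1 (0.687% and 1.33%) were higher in 1, and Pilra (0% and 0.0951%) in 0.

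Transcription factors split. Batf (15.8% and 4.66%), Prdm1 (8.93% and 1.81%), Nr4a2 (15.1% and 6.09%), Nfatc1 (13.4% and 6.56%), Id2 (46.4% and 28.0%), Ikzf2 (22.3% and 6.76%) and Tbx21 (7.22% and 3.81%) were found more often in the cells with at least 2 of the genes in 4 of 4 libraries. Tox2, a relative of Tox, was found in 2.75% and 0.285%, from 8 and 3 cells, and was higher in 3 of 4 libraries. Tcf7, which encodes the factor TCF-1 of naive, memory and stem-like T cells, was found in 2.41% and 13.6% and was lower in 4 of 4 libraries. Lef1, its relative, was found in 3.09% and 11.9% and was lower in 3 of 4 and higher in 1. The naive and circulation genes Klf2 (8.59% and 21.6%) and S1pr1 (2.41% and 7.42%) were lower in 3 of 4, while of the same list Il7r (15.8% and 18.6%) was lower in 3 of 4 and higher in 1, and Ccr7 (6.53% and 6.76%) higher in 2 and lower in 1. Cxcr6, a receptor of tissue-resident T cells, was found in 35.7% and 12.9%. Over all cells, Nr4a1 did not separate the cells (12.4% and 12.9%), nor did Cd69 (12% and 11.9%). In CD4 cells Nr4a1 was at 21% and 9.88%, higher in 3 of 3 libraries. Cd69 was at 7% and 15.12% there, lower in 3 of 3. In CD8 cells Nr4a1 was at 6.36% and 11.39% and Cd69 at 13.64% and 11.03%, each lower in 2 of 3. Foxp3 was found over all cells in 8.93% and 1.62%. Cells read as regulatory were thus more common among those with at least 2 of the genes. Among CD8 cells, where Foxp3 was found in 0.909% and 0.712%, Tcf7 was still at 0.909% and 9.25%, Nkg7 at 91.8% and 65.1% and Icos at 11.8% and 3.91%. Il7r was at 2.73% and 14.6% in CD8 cells, lower in 3 of 3 libraries, and at 26.0% and 26.7% in CD4 cells.

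**Figure D5:**
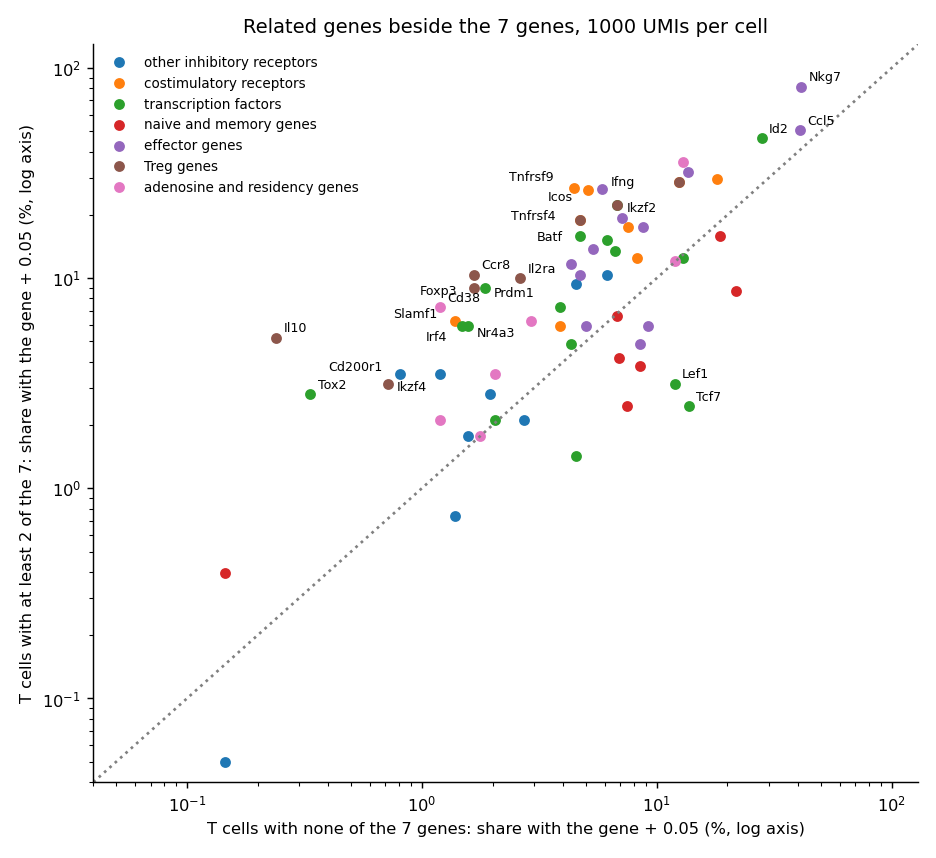
Share (%, log axes, 0.05 added) of T cells with each list gene among the 1051 cells with none of the 7 genes (horizontal) and the 291 with at least 2 (vertical), at 1000 UMIs per cell and without mixed barcodes; the dotted line marks equal shares, and 3 genes that stand in 2 lists are drawn over each other. Icos, Tnfrsf9, Ifng and Batf lie far above the line and Tcf7 and Lef1 far below it.

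Beside the 7 genes, the lists stood as follows in the summed T cells. In L-fuc day 7 over control day 7, 5 of 12 effector genes were at least 2-fold higher, Gzma (log2 ratio 2.07), Gzmb (1.83), Ifng (1.79), Xcl1 (1.53) and Prf1 (1.48), and 3 of 9 costimulatory receptors, Icos (1.23), Slamf1 (1.13) and Tnfrsf9 (1.07). The counts were 1 of 9 for other inhibitory receptors (Cd160), 2 of 16 for transcription factors (Tbx21 and Nr4a3), 1 of 7 for naive and memory genes (Ccr7), 1 of 8 for regulatory T cell genes (Ccr8) and 0 of 7 for adenosine and residency genes. No gene of these lists was at least 2-fold lower there, beside 5.05% of all genes higher and 8.62% lower. Without mixed barcodes the counts higher were 7 of 12 for effector genes, 6 of 9 for costimulatory and 3 of 9 for other inhibitory receptors, 2 of 16 for transcription factors, 4 of 6 for naive and memory genes, 4 of 8 for regulatory T cell genes and 2 of 7 for adenosine and residency genes, with 1 inhibitory receptor lower, beside 5.08% of genes higher and 12.6% lower. In L-fuc day 21 over control day 21, all 9 costimulatory receptors and 10 of 12 effector genes were at least 2-fold lower, among them Tnfrsf9 (-2.78), Icos (-2.05), Gzmb (-3.71), Ccl5 (-3.65) and Ifng (-2.75), with Gzma higher from 1 and 76 UMIs. Of the transcription factors 8 of 16 were lower and 4 higher, Irf4 (2.31), Id3 (1.93), Tcf7 (1.83) and Lef1 (1.28), while of 6 naive and memory genes past the minimum S1pr1 was higher and 0 were lower. Lower, too, were 5 of 9 other inhibitory receptors, 4 of 8 regulatory T cell genes and 4 of 7 adenosine and residency genes, with 1 inhibitory receptor higher, beside 10.6% of all genes lower and 9.78% higher. Without mixed barcodes 8 of 9 costimulatory receptors and 11 of 12 effector genes were lower, and 1 effector gene higher. Of 15 transcription factors past the minimum 7 were lower and 3 higher, and of 6 naive and memory genes 2 were higher. Lower were 4 of 6 other inhibitory receptors (1 higher), 3 of 7 regulatory T cell genes and 3 of 6 adenosine and residency genes. Of all genes, 12.4% were lower and 15.4% higher. The lists' medians over all T cells were 0.93 for costimulatory and 0.91 for effector genes at day 7 and -1.62 and -2.21 at day 21, beside -0.13 and -0.09 for all genes. In L-fuc day 21, 10 of 50 T cells held at least 2 UMIs of the B cell genes Cd79a and Cd79b, against 3 of 67 in control day 21. The part of such barcodes in these counts was not tested.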

How the data were processed

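CD45+ cells from pooled SW1 tumors were profiled on the 10x Genomics platform, with 1 expression and 1 T cell receptor library in each of the 5 groups. The labels give 5 mice per arm in their treatment protocol and 6 mice in their extract protocol (3 before treatment). They place the start of treatment at day 10 after injection (day 14 in the study's methods). The deposited expression matrices hold UMI counts per gene and barcode, made by the authors with Cell Ranger against mm10 (version 3.0 in the processing notes, 7.1.0 in the matrix headers), before the authors' filters on genes and doublets, and no doublet caller was run here. The deposited receptor tables give each clonotype's number of barcodes, its share of the library as a proportion computed by Cell Ranger, and its CDR3 sequences. The receptor barcodes were matched to the expression barcodes of the same group, and the proportions and consensus annotations were not used for any value.

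T cells, CD8 and CD4 cells, mixed barcodes and depth settings are as given in the report. Shares carry exact binomial intervals, ratios of shares conditional exact intervals, both at 95% (scipy 1.17.1, Python 3.11.15). With 1 library per group no test between groups was possible. Differences within libraries were tested over libraries with an exact two-sided sign-flip permutation test, adjusted by Benjamini-Hochberg over 9 measures. Summed counts were compared across all genes with at least 10 UMIs, a pseudocount of 1 UMI and a threshold of 2-fold. The code was tested on simulated data. The 7 genes and the gene lists were chosen with earlier results of these data known. Genes are named from the 7, from the lists, and as the 3 other genes of highest phi coefficient per member among genes in at least 2% of T cells at 1000 UMIs; the list genes given by value were picked after their values were seen. The alternatives covered the CD3 minimum, mixed barcodes, depth, the UMIs that count as detected, the class rule, the pseudocount, the gene minimum and each library left out.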

Additional observations from a re-analysis of the deposited data

Results flagged for a closer look

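For Pdcd1, Lag3, Tigit and T cells with at least 3 members, the L-fuc library lay above control at day 7 and below it at day 21, with both intervals clear of 1. The ratio of shares for Pdcd1 was 1.36 at day 7 and 0.482 at day 21, for Lag3 1.67 and 0.499, for Tigit 1.39 and 0.456, and for at least 3 members 1.49 and 0.521. The difference between the days was not tested, since each group is 1 pooled library. Among T cells with a receptor the day 21 ratio for at least 3 members was 0.805 (0.426 to 1.44) with all UMIs. Those cells held a median of 11308 UMIs in L-fuc and 5589 in control. Drawn to 1000 UMIs, cells with a receptor gave 0.236 (0.0268 to 0.973). The day 21 libraries held 67 and 50 T cells, and a receptor was found for 77.6% of the former and 44.0% of the latter. The part of this in the result was not tested.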

How the results depend on the processing

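No paired analysis was possible because each group held 1 library, numbered 1, so groups shared fewer than 2 replicate numbers; CD8 and CD4 cells, and expanded and single clonotypes, were compared within each library. The day 21 values rest on 67 and 50 T cells. For T cells with at least 3 members the ratio of L-fuc over control at day 7 was 1.49 and stayed above 1 in 18 of 18 alternatives; it was 2.46 with at least 1 and 1.24 with at least 3 CD3 UMIs, 1.79 without mixed barcodes, 7.68, 2.04 and 1.96 at 500, 1000 and 2000 UMIs per cell, and 3.52 with a gene counted from 2 UMIs. Already at 1000 UMIs, 31 of 1481 T cells of control day 7 held 3 members, 8 held 4 and 0 held more. The 7.68 at 500 UMIs thus rests on few control cells. No alternative joined CD8 cells, 1000 UMIs and the removal of mixed barcodes. There the day 7 shares were 6.01% in control and 5.24% in L-fuc. At day 21 the ratio for at least 3 members was 0.521, and 0.223, 0.112 and 0.233 at 500, 1000 and 2000 UMIs. The other 15 alternatives lay within its interval. The day 7 ratio of Entpd1 turned below 1, at 0.693, 0.693 and 0.965 with 500, 1000 and 2000 UMIs and at 0.829 in CD4 cells, and that of Havcr2 (1.03) was 0.573 and 0.814 with 500 and 2000 UMIs.

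Genes past 2-fold numbered 2000 at day 7 and 3864 with a minimum of 1 UMI. At day 21 they numbered 2069, then 1009 with at least 30 UMIs, 3812 with at least 1 UMI and 521 after drawing cells to 1000 UMIs. Calls that were higher made up 36.9% at day 7, 26.7% with a pseudocount of 5 and 20.8% at 1000 UMIs, and 47.9% at day 21, 26.8% with a pseudocount of 5 and 35.3% at 1000 UMIs. Summed at 1000 UMIs, Lag3 (0.90) and Tigit (0.87) at day 7 and Entpd1 (-0.79) at day 21 were no longer past 2-fold.

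The difference between CD8 and CD4 cells kept its direction in 57 of 72 alternatives. Pdcd1 turned to 5.09 points at 1000 UMIs and 1.02 without mixed barcodes, Havcr2 to -3.43 with classes from 2 UMIs and -1.17 at 1000 UMIs, Tigit to 5.67 without Foxp3 cells and 2.08 without mixed barcodes, and Entpd1 to -4.62 with classes from 2 UMIs. With 1 library left out, Pdcd1 ran from -9.99 to 1.94, Lag3 from -8.95 to 0.95, Tigit from -2.89 to 2.38, Entpd1 from -1.86 to 2.87 and at least 3 members from -9.56 to -1.52. The difference between expanded and single clonotypes kept its direction in 96 of 96 alternatives, and without 1 library at least 3 members ran from 18.1 to 33.4 points. The exact tests could not pass 0.05 with 4 or 5 libraries, so these are statements on direction only. The causes were not tested.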
